A study of Mus musculus with 16 samples.

Results

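The 10 imprinted growth-control genes Igf2, H19, Dlk1, Meg3, Peg3, Mest, Cdkn1c, Grb10, Plagl1 and Ndn were followed across mouse neural crest stem cells before and after priming. Their probe sets were those of the deposited table whose platform annotation gives that gene and no other gene. For 9 of the 10 this gave 36 probe sets, out of 45101 on the array, and for each gene the probe set with the highest mean log2 intensity over 16 arrays leads. H19 had no such probe set. Its only probe set is annotated to H19 together with Mir675, the microRNA gene inside it, so its values are given as those of the H19 with Mir675 probe set and not of a gene. The samples were 4 arrays each of cells primed towards glia (label Glia), towards neurons (label Autonomic), towards mesenchyme (label Mesenchymal) and of unprimed cells (label NCSCs). All were primary mouse material from neural crest, in a medium for such stem cells. The labels speak of instructive growth factors, but strain, age, the factor, its dose and the length of exposure were not given, and unprimed samples carry the same treatment label. Each array averages a culture, so fewer cells with a transcript and less transcript per cell cannot be told apart.

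Imprinted genes are transcribed mainly from the copy inherited from a given parent. Many act on embryonic growth, and in mouse the paternally expressed ones often promote it while the maternally expressed ones often restrain it. Igf2, which encodes a secreted growth factor, is paternally expressed and lies next to the maternally expressed noncoding RNA H19, with which it shares enhancers downstream of H19. Dlk1, which encodes a membrane relative of the Notch ligands, is paternally expressed and lies next to the maternally expressed noncoding RNA Meg3. Because the arrays report total RNA of both copies, none of the values below says which parental copy was transcribed.

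The mature microRNAs of H19 are shown because they explain the annotation of its probe set to a pair of genes. Both lie inside the H19 transcription unit, at chr7:142577112-142577133 for the 5p and chr7:142577078-142577099 for the 3p form, on the minus strand of GRCm38.p6 in RefSeq. Capitals mark the seed, bases 2 to 8, and the microRNAs themselves were not measured.
mmu-miR-675-5p: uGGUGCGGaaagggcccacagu
mmu-miR-675-3p: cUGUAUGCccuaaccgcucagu

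Promoter windows of RefSeq on GRCm38.p6, which run from 250 bases before to 50 bases after a transcription start, matched 8 of the 10 genes with 15 windows. They were searched on both strands for TGCCGC, the motif bound by ZFP57 when methylated, and for CCATNTT, a core of the YY1 motif. TGCCGC lay in 6 of the 15 windows, against 11.6% of all 32851 promoter windows, and CCATNTT lay in 2 of the 15, against 16.1% of all. The ratio of observed to expected CpG was above 0.6 in 7 of the 15 windows, against 35.8% of all windows. Of the 6 windows with TGCCGC, 2 are Mest windows that overlap almost wholly. The windows below are those with 2 TGCCGC matches (Mest), with the highest CpG ratio (Grb10, ratio 0.973) and with both motifs (Igf2, ratio 0.791). Capitals mark a match to either motif, which is a description of the sequence and not a sign of binding.
Mest promoter window, chr6:30737800-30738099, plus strand: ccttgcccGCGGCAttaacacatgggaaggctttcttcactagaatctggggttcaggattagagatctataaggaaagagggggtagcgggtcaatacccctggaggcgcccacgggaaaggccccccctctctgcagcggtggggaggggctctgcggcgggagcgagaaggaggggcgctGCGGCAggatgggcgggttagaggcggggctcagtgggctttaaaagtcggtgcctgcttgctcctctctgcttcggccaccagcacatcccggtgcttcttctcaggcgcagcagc
Grb10 promoter window, chr11:12037371-12037670, minus strand: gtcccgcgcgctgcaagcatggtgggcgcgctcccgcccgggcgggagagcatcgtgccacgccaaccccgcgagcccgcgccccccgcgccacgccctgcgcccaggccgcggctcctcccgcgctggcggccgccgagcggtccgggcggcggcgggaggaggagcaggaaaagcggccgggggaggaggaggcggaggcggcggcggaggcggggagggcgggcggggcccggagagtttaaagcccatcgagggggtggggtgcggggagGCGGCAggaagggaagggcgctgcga
Igf2 promoter window, chr7:142661222-142661521, minus strand: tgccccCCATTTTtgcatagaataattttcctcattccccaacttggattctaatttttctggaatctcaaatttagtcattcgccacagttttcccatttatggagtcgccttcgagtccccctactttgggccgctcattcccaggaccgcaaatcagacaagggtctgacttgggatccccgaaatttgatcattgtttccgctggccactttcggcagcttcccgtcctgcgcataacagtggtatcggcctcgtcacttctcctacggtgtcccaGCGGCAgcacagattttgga

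Median log2 intensities per array lay between 3.05 and 3.15, and no pair of arrays held identical values. Crest markers were present, with 10 of 11 measured markers at a mean log2 above 4 in each group, but Autonomic replicate 1 stood apart. Its mean over the crest markers was 4.95, against 6.54 to 6.75 on the other Autonomic arrays, and its Sox10 level, a crest transcription factor, was 4.30 against 8.07 to 8.27. NCSCs replicate 4 had a crest marker mean of 6.13, against 6.57 to 7.31 on the other NCSCs arrays, and a Sox10 level of 6.44, against 7.85 to 8.74. The crest marker Ngfr, a neurotrophin receptor, averaged 7.20 in Glia and 6.32 in Autonomic arrays, against 9.07 in NCSCs arrays, and fell in both (log2 changes -1.87 and -2.75, limma adjusted p = 0.0479 and 0.00554). It was also lower in both than in Mesenchymal arrays (mean 9.39, limma adjusted p = 0.0307 for Glia and 0.00356 for Autonomic). Of the 11 measured crest markers Ngfr alone was called in these comparisons. The median change of the 11 against NCSCs arrays was 0.16 in Glia and -0.40 in Autonomic arrays. Neural tube markers averaged 6.06 on Autonomic replicate 1, against 2.71 to 3.91 on the other Autonomic arrays. They averaged 5.13 on Mesenchymal replicate 3 and 6.64 on NCSCs replicate 4, against 2.28 to 3.87 on the remaining arrays. Of the 6 neural tube markers, Olig2 and Nkx2-2 stayed below the array medians in every group's mean. Fibroblast and sclerotome markers averaged 4.93 to 5.95 on the Glia arrays, 4.02 to 5.37 on the Autonomic arrays, 4.07 to 5.99 on the Mesenchymal arrays and 3.40 to 4.93 on the NCSCs arrays, with 4 of 8 above a mean of 4 in each group. Among them, and named after their values were seen, the matrix genes Postn and Col1a1 lay farthest above NCSCs arrays. They averaged 9.22 and 8.67 in Glia, 8.20 and 9.10 in Autonomic, 7.90 and 8.07 in Mesenchymal and 5.59 and 4.85 in NCSCs arrays. Pdgfra averaged 5.12 to 5.96 by group, and the sclerotome markers Pax1 and Nkx3-2 averaged at most 2.61 in each group. The median change of the 8 markers against NCSCs arrays was 0.55 in Glia, 0.31 in Autonomic and 0.29 in Mesenchymal arrays. Endothelial markers averaged 1.81 to 2.60 on all arrays, with 0 of 6 above a group mean of 4. Skeletal muscle markers averaged 2.52 to 4.30, blood and macrophage markers 2.40 to 3.62 and surface epithelium markers 2.98 to 4.38. By group 1 to 3 of 7, 0 to 1 of 5 and 2 to 3 of 6 of these lay above a mean of 4. Among the brighter ones, Krt18 averaged 6.81 in Autonomic and 6.31 in NCSCs arrays, and Myh3 and Hbb-y averaged 5.585 and 5.23 in Mesenchymal arrays. The 3′ to 5′ log2 ratio of the Gapdh control probe sets, a sign of RNA quality, averaged 2.95 ± 0.391 in Glia, 2.85 ± 0.242 in Autonomic, 2.96 ± 0.222 in Mesenchymal and 2.35 ± 0.187 in NCSCs arrays (SD, n = 4 each). Xist, the RNA that coats an inactive X chromosome, was at 2.61 to 5.34 in Glia, 3.15 to 10.6 in Autonomic, 2.68 to 11.2 in Mesenchymal and 6.39 to 10.5 in NCSCs arrays. The part of the marker differences in the results below was not tested. Fits without each array, and fits with the Gapdh ratio or the Xist level as a covariate, were made for every comparison and called 0 members. Where they moved a change or turned its sign, values are given below for some results and not for all. Xist did not overlap between Glia and NCSCs arrays. The Gapdh ratio did not overlap between Mesenchymal and NCSCs arrays (at least 2.66 against at most 2.58). In those comparisons a fit with that covariate cannot tell it apart from the group.

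None of the 9 members with a probe set of their own passed the threshold used, an adjusted p under 0.05 by limma over 18194 genes. Across the 6 pairwise comparisons of the 4 groups, 0 of 54 tests of the 9 genes passed, and 9 had an unadjusted p under 0.05. Glia against NCSCs called 0 of 9, with 3 at an unadjusted p under 0.05, while 0.511% of all genes were called and 9.91% had such a p. Autonomic against NCSCs called 0 of 9, with 1 at such a p, against 0.434% and 9.8% of all genes. Mesenchymal against NCSCs called 0 of 9, with 1 at such a p, against 0.022% and 7.7%. Glia against Autonomic called 0 of 9, with 1 at such a p, against 0.011% and 6.24%. Glia against Mesenchymal called 0 of 9, with 0 at such a p, against 0.225% and 7.05%, and Autonomic against Mesenchymal called 0 of 9, with 3 at such a p, against 0.346% and 8.23%. In a test of any difference among the 4 groups 0 of 9 were called (adjusted p from 0.275 for Mest to 0.93 for Peg3), against 0.599% of all genes. The median change of the 9 genes was -0.28 in Glia, -0.40 in Autonomic and -0.028 in Mesenchymal against NCSCs arrays, beside all-gene medians of -0.0062, 0.0042 and -0.0058. Genes brighter than the median gene, which include 8 of the 9, are the nearer baseline. Their medians were -0.11, -0.086 and -0.11. These calls rest on 4 arrays a group, and in simulated data of this design 6 of 50 genes changed 2-fold were called, so a missed threshold does not show that a gene stayed level.

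**Figure D1:**
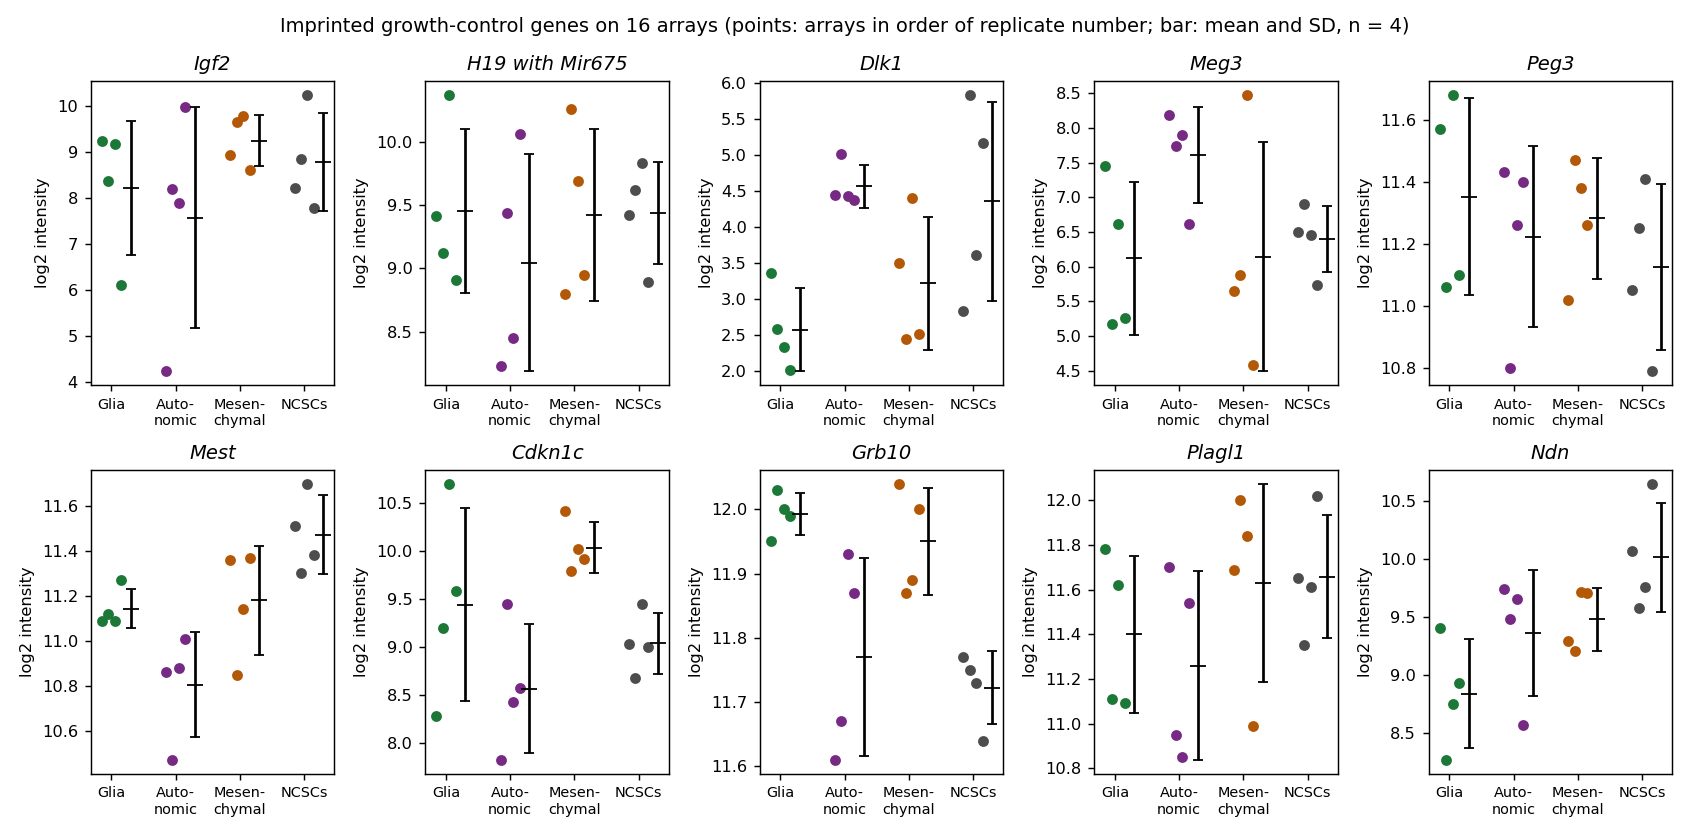
Log2 intensity (vertical axes, a scale of its own in each panel) of 9 genes and of the H19 with Mir675 probe set on each array, by group; points are arrays and bars give the mean and SD of 4 arrays. Igf2 spans 4.24 to 10.25 over the 16 arrays, while Grb10 spans 11.61 to 12.04.

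The growth factor gene Igf2 varied more between replicates than between groups. Its log2 intensities were 9.24, 8.37, 9.18 and 6.11 on the Glia arrays, 4.24, 8.21, 7.89 and 9.98 on the Autonomic arrays, 8.95, 9.65, 9.80 and 8.62 on the Mesenchymal arrays, and 8.23, 8.86, 10.25 and 7.80 on the NCSCs arrays. All 4 groups overlapped, and the lowest value belonged to Autonomic replicate 1, the array with low crest markers. In each group the array with the highest fibroblast and sclerotome marker mean held that group's highest Igf2 value. These were Glia replicate 1, Autonomic replicate 4, Mesenchymal replicate 3 and NCSCs replicate 3 (marker means of 5.95, 5.37, 5.99 and 4.93). This was noticed for the leading probe set after its values were seen and was not tested. In Glia arrays it rests on 9.24 against 9.18. Group means were 8.22 ± 1.46 in Glia, 7.58 ± 2.41 in Autonomic, 9.25 ± 0.56 in Mesenchymal and 8.79 ± 1.07 in NCSCs arrays (SD, n = 4 each). No neighbours in the order of these means differed beyond their spread. Autonomic against NCSCs arrays gave a log2 change of -1.21 (95% interval -3.34 to 0.92, limma adjusted p = 0.759), and -0.095 without Autonomic replicate 1. The interval for Glia against NCSCs, -2.69 to 1.57, allowed changes of several fold either way. The dimmer Igf2 probe set gave -1.36 in Glia and -1.52 in Autonomic against NCSCs arrays (limma adjusted p of at least 0.619 over all probe sets), as did the leading probe set in sign. For Glia that sign was not settled, since the leading probe set gave 0.14 without Glia replicate 4. With the Xist level as a covariate it gave 0.94, but that fit cannot tell Xist apart from the group, as the 2 groups do not overlap in it.

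The H19 with Mir675 probe set had log2 intensities of 9.41, 9.12, 10.37 and 8.91 on the Glia arrays, 8.23, 9.44, 8.45 and 10.06 on the Autonomic arrays, 8.80, 10.26, 9.69 and 8.95 on the Mesenchymal arrays, and 9.42, 9.62, 9.83 and 8.89 on the NCSCs arrays. The groups overlapped throughout. The differences from NCSCs were 0.0097 for Glia (95% interval -0.94 to 0.96), -0.40 for Autonomic (-1.34 to 0.55) and -0.017 for Mesenchymal arrays (-0.97 to 0.93), with limma adjusted p from 0.872 to 0.998 in a fit of all 45101 probe sets. In that fit 0.286% of probe sets were called for Glia, 0.275% for Autonomic and 0% for Mesenchymal against NCSCs arrays. H19 RNA is known as the source of miR-675, printed above, and this probe set cannot tell the long RNA from the microRNA precursor inside it.

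Arrays with more Igf2 signal also had more signal of the H19 with Mir675 probe set, whatever their group. Across the 16 arrays Pearson's r was 0.75 (permutation p = 0.00036, adjusted p = 0.0018 over 5 relations) and Spearman's rho was 0.76 (permutation p = 0.00104, adjusted p = 0.0052), both two-sided with 100000 resamples. After each group's mean was taken away r was 0.76, and without Glia replicate 4 and Autonomic replicate 1, the arrays farthest from the Igf2 median, r was 0.72. The dimmer Igf2 probe set gave an r of 0.71 with the same H19 with Mir675 probe set, and 0.77 within groups. The 5 relations were chosen from known loci and regulators after the values of these arrays had been seen, and whether arrays share an embryo, a culture or a day is not known from the labels.

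The other neighbouring pair, Dlk1 and Meg3, had an r of 0.57 (permutation p = 0.0227, adjusted p = 0.0567 over the 5 relations) and a rho of 0.58 (permutation p = 0.0217, adjusted p = 0.0543), which missed the threshold after adjustment. Within groups r was 0.48, and without NCSCs replicates 2 and 4, the arrays farthest from the Dlk1 median, it was 0.78. The other 3 relations gave r values of 0.42 for Igf2 with Cdkn1c, 0.22 for Plagl1 with Igf2 and 0.065 for Plagl1 with Cdkn1c (permutation adjusted p of 0.175, 0.545 and 0.809, and of 0.36, 0.415 and 0.875 for rho). Plagl1 encodes a zinc finger factor that activates Igf2 and Cdkn1c in other mouse tissues.

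**Figure D2:**
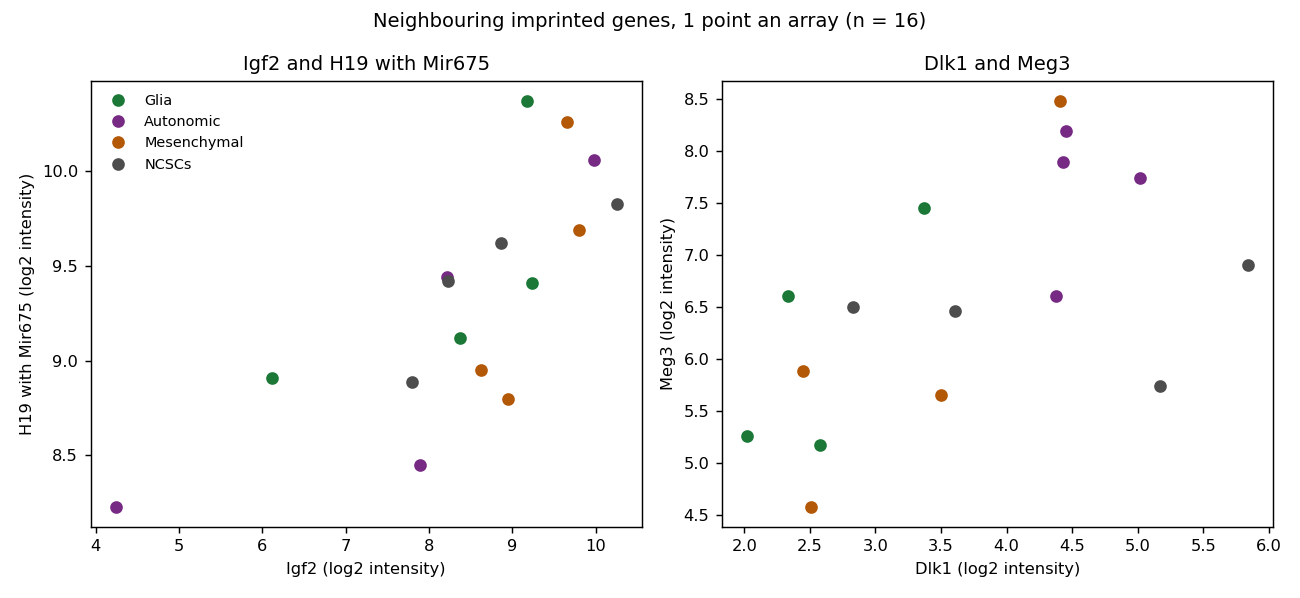
Log2 intensity of neighbouring imprinted genes against each other, 1 point an array (n = 16), coloured by group; both axes are log2 intensity. Igf2 and the H19 with Mir675 probe set lie along a rising line (r = 0.75) that holds arrays of every group, and Dlk1 and Meg3 scatter more widely (r = 0.57).

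Dlk1, whose product keeps progenitors such as preadipocytes undifferentiated in culture, was dim in every group. Its log2 intensities were 3.37, 2.58, 2.33 and 2.02 on the Glia arrays, 4.45, 5.02, 4.43 and 4.38 on the Autonomic arrays, 3.50, 2.45, 4.41 and 2.51 on the Mesenchymal arrays, and 2.83, 5.84, 3.61 and 5.17 on the NCSCs arrays. Glia arrays lay below all Autonomic arrays without overlap, and 3 of the 4 Glia arrays lay below the array medians, where a level above background was not shown. The log2 difference of Glia from Autonomic arrays was -1.99 (SE 0.59, 95% interval -3.25 to -0.73, limma adjusted p = 0.551), and of Glia from NCSCs arrays -1.78 (SE 0.59, 95% interval -3.04 to -0.53, limma adjusted p = 0.273). Neither difference passed, and since these Glia values are near the lowest signals their size depends on the scale: with 16 added before the log they were -0.84 and -0.84. The other Dlk1 probe set, dimmer still at a mean of 2.53, gave 0.017 for Glia against NCSCs arrays. With the Xist level as a covariate the leading probe set's difference from NCSCs was -0.75, and with the Gapdh ratio -2.24. Xist itself was lower on all Glia than on all NCSCs arrays, so the Xist fit cannot tell it apart from the group.

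Meg3, a noncoding RNA that restrains cell growth in culture, was highest on average in Autonomic arrays. Its leading probe set gave 7.45, 5.17, 6.61 and 5.26 on the Glia arrays, 8.19, 7.74, 7.90 and 6.61 on the Autonomic arrays, 5.65, 5.88, 8.48 and 4.58 on the Mesenchymal arrays, and 6.50, 6.90, 6.46 and 5.74 on the NCSCs arrays. Autonomic arrays overlapped every other group, and Mesenchymal replicate 3, one of the arrays with raised neural tube markers, held the highest value of all 16. The other arrays with such markers went both ways. Autonomic replicate 1 was the highest of its group (8.19), and NCSCs replicate 4 was the lowest of its group (5.74). The differences were 1.21 from NCSCs (95% interval -0.30 to 2.72, limma adjusted p = 0.63), -1.49 for Glia from Autonomic (-3.00 to 0.02, limma adjusted p = 0.807) and 1.46 for Autonomic from Mesenchymal arrays (-0.05 to 2.97, limma adjusted p = 0.633). With the Gapdh ratio as a covariate the Autonomic difference from NCSCs was -0.18.

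Meg3 has 11 probe sets, and 8 of them had a mean above that of the median probe set. In Autonomic against Mesenchymal arrays 7 of these 8 had a positive change and 5 had an unadjusted p under 0.05, where 7.77% of all probe sets did. The 8 share a gene and are not independent. Over all probe sets 0.206% were called in this comparison and 0.0111% in Glia against Autonomic. The lowest limma adjusted p among the 8 was 0.135, for a probe set with 6.49 in Autonomic and 4.61 in Mesenchymal arrays (log2 change 1.89, SE 0.425), so none was called. In Glia against Autonomic arrays all 8 had a negative change, 4 with an unadjusted p under 0.05 (6.23% of all probe sets), and the lowest limma adjusted p was 0.718.

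Grb10 is an adaptor that dampens insulin and IGF receptor signalling, and its leading probe set was the steadiest of those of the members. Its log2 intensities were 11.95, 12.03, 12.0 and 11.99 on the Glia arrays, 11.61, 11.67, 11.93 and 11.87 on the Autonomic arrays, 12.04, 11.87, 11.89 and 12.0 on the Mesenchymal arrays, and 11.77, 11.75, 11.73 and 11.64 on the NCSCs arrays. All 4 Glia arrays and all 4 Mesenchymal arrays lay above all NCSCs arrays, but the shifts were small. The difference of Glia from NCSCs was 0.27 on the log2 scale (SE 0.12, 95% interval 0.012 to 0.53, limma adjusted p = 0.474) and that of Mesenchymal from NCSCs 0.23 (95% interval -0.031 to 0.49, limma adjusted p = 0.697). The other Grb10 probe sets gave changes of the opposite sign, -0.057 and -0.13, for Glia against NCSCs arrays, so the direction was not shared by the probe sets. Nor was the steadiness, since they spanned 8.99 to 9.97 and 7.84 to 10.05. Their r with the leading probe set was -0.068 and -0.095.

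Cdkn1c, which encodes the p57 inhibitor of cyclin-dependent kinases, separated Mesenchymal from both Autonomic and NCSCs arrays. It had 8.28, 9.19, 10.70 and 9.58 on the Glia arrays, 7.82, 9.44, 8.42 and 8.57 on the Autonomic arrays, 10.41, 9.79, 10.02 and 9.91 on the Mesenchymal arrays, and 9.03, 8.67, 9.44 and 9.0 on the NCSCs arrays. The 4 Mesenchymal arrays lay above all Autonomic and all NCSCs arrays, and Glia arrays overlapped every group. Means were 9.44 ± 1.0 in Glia, 8.56 ± 0.67 in Autonomic, 10.03 ± 0.268 in Mesenchymal and 9.04 ± 0.317 in NCSCs arrays (SD, n = 4 each). The difference of Autonomic from Mesenchymal arrays was -1.47 (SE 0.42, 95% interval -2.38 to -0.56, limma adjusted p = 0.245), and that of Mesenchymal from NCSCs arrays 1.00 (SE 0.42, 95% interval 0.088 to 1.90, limma adjusted p = 0.601). Leaving out any of the 16 arrays kept the first of these between -1.76 and -1.22. Cdkn1c was measured by a single probe set.

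Mest, an imprinted gene for an alpha/beta-hydrolase-fold protein that marks mesoderm and mesenchyme in mouse embryos, had the smallest adjusted p of the members, in Autonomic against NCSCs arrays. Its log2 intensities were 11.09, 11.12, 11.09 and 11.27 on the Glia arrays, 10.86, 10.47, 10.88 and 11.01 on the Autonomic arrays, 11.36, 10.85, 11.14 and 11.37 on the Mesenchymal arrays, and 11.51, 11.30, 11.70 and 11.38 on the NCSCs arrays. Every Autonomic array and every Glia array lay below every NCSCs array, and every Autonomic array lay below every Glia array. The log2 change in Autonomic against NCSCs arrays was -0.67 (SE 0.16, 95% interval -1.02 to -0.32, limma adjusted p = 0.113). It missed the threshold, and of 30 alternatives 1 called it, the log2 of the value plus 16 (change -0.67, limma adjusted p = 0.0481). The change was -0.69 without Autonomic replicate 1 and -0.43 when arrays were centred on housekeeping genes, a scaling that lifts the median gene by 0.24. Glia differed from NCSCs by -0.33 (95% interval -0.68 to 0.018, limma adjusted p = 0.529).

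**Figure D3:**
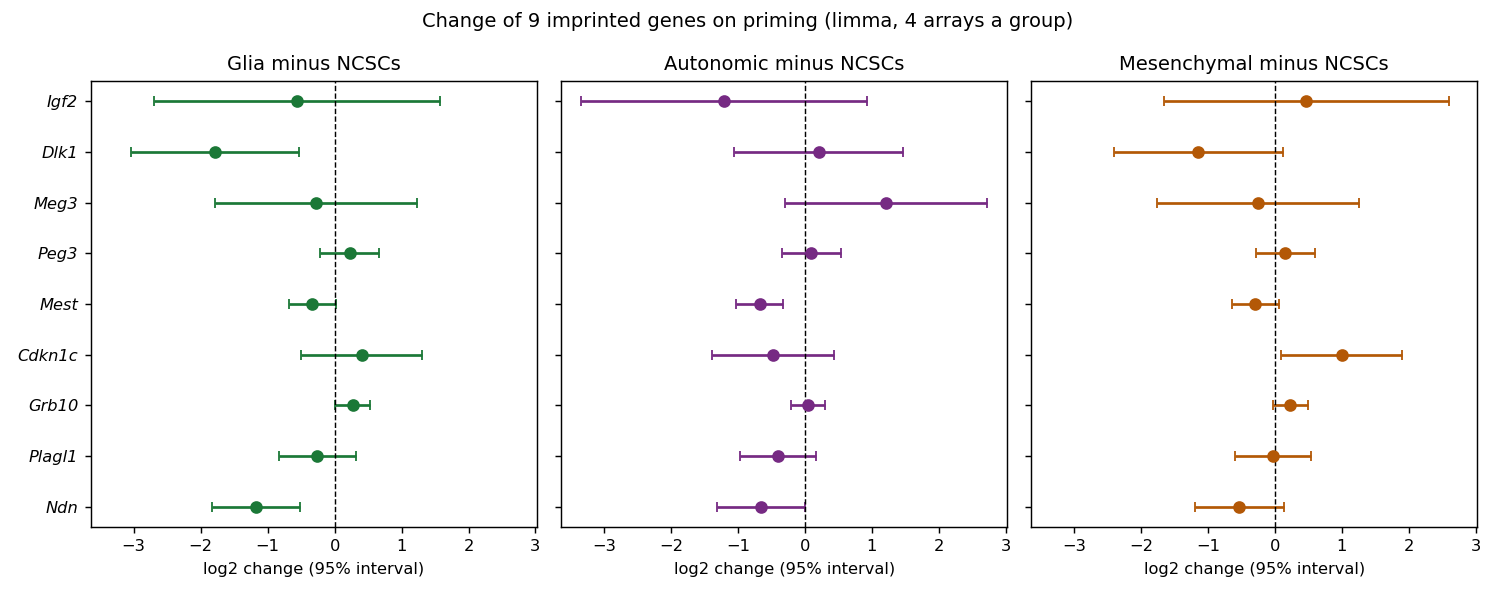
Log2 change of 9 imprinted genes (rows) in Glia, Autonomic and Mesenchymal against NCSCs arrays, with 95% intervals of limma that are not adjusted for the number of genes; the dashed line is no change. Intervals of Mest in Autonomic and of Ndn and Dlk1 in Glia arrays lie below 0. Those of Grb10 in Glia and of Cdkn1c in Mesenchymal arrays lie above 0, and those of Igf2 and Meg3 are the widest.

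Ndn encodes necdin, a growth-restraining protein of the MAGE family that is known for its role in postmitotic neurons. Its leading probe set gave 9.41, 8.27, 8.75 and 8.93 on the Glia arrays, 9.74, 9.48, 9.66 and 8.57 on the Autonomic arrays, 9.29, 9.21, 9.72 and 9.71 on the Mesenchymal arrays, and 10.07, 9.58, 9.76 and 10.65 on the NCSCs arrays. The 4 Glia arrays lay below the 4 NCSCs arrays, and the other groups overlapped both. In each group the array with the highest neural tube marker mean also had the highest Ndn value, namely Glia replicate 1, Autonomic replicate 1, Mesenchymal replicate 3 and NCSCs replicate 4. This was noticed after the values were seen and is given for the leading probe set alone. In Mesenchymal arrays it rests on 9.72 on replicate 3 against 9.71 on replicate 4. The neural tube markers averaged 3.04 in Glia and 4.28 in NCSCs arrays, and their part in the Ndn difference was not tested. The log2 change in Glia against NCSCs arrays was -1.17 (SE 0.31, 95% interval -1.83 to -0.51, limma adjusted p = 0.136), and -0.96 without NCSCs replicate 4. Of the 5 Ndn probe sets with a mean above that of the median probe set, 4 had a negative change here, from -1.17 to -0.17, and the other gave 0.27. With probe sets left out whose identifiers mark cross-matching or shared probes, the gene's change was this 0.27, so the size and sign rest on the choice of probe set.

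**Figure D4:**
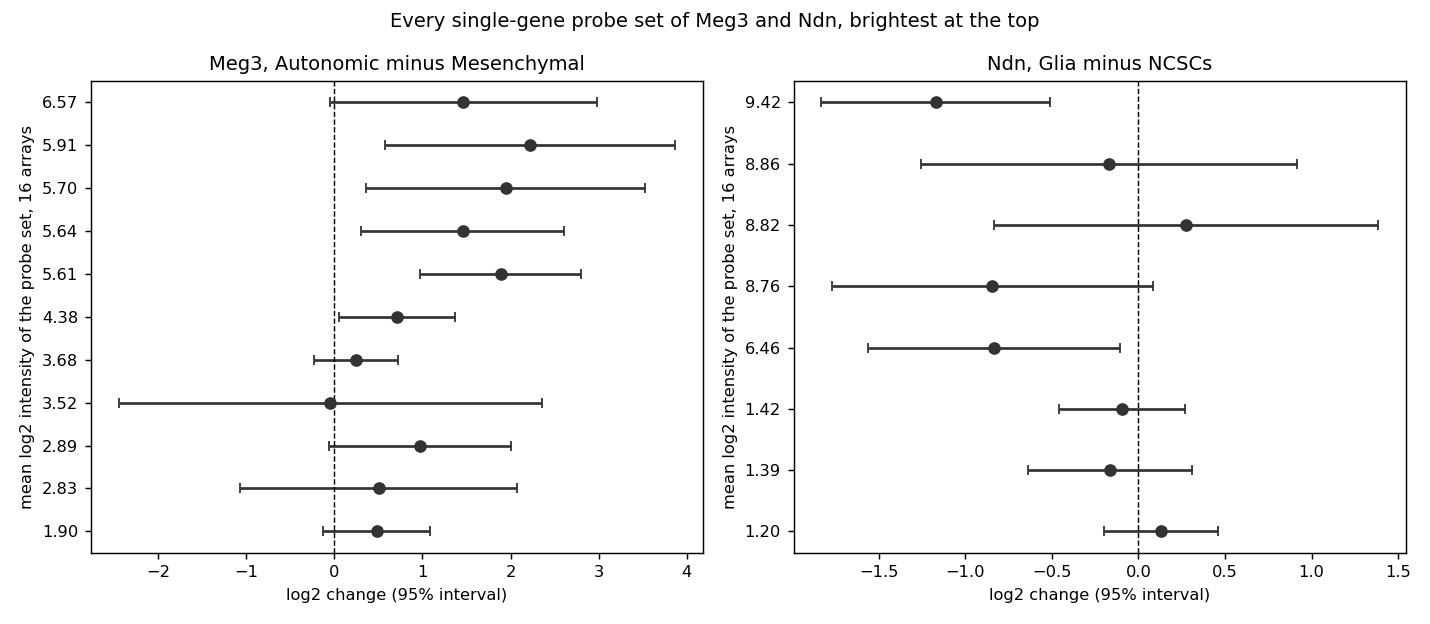
Log2 change with 95% intervals for every single-gene probe set of Meg3 (Autonomic minus Mesenchymal) and Ndn (Glia minus NCSCs), each row labelled by the probe set's mean log2 intensity. The brighter Meg3 probe sets lie to the right of 0 with 1 near it (-0.045), and the Ndn probe sets scatter from -1.17 to 0.27.

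Peg3, a paternally expressed gene for a zinc finger protein, did not separate the groups. It had 11.57, 11.06, 11.68 and 11.10 on the Glia arrays, 11.43, 10.80, 11.26 and 11.40 on the Autonomic arrays, 11.02, 11.47, 11.38 and 11.26 on the Mesenchymal arrays, and 11.05, 11.25, 11.41 and 10.79 on the NCSCs arrays. The groups overlapped, and the intervals of the differences from NCSCs ran from -0.21 to 0.66 for Glia, -0.34 to 0.54 for Autonomic and -0.28 to 0.59 for Mesenchymal arrays. Its second probe set averaged 10.9 in Glia and 10.4 in NCSCs arrays, a log2 change of 0.51 with a limma adjusted p of 0.359 over all probe sets. With the Gapdh ratio as a covariate the leading probe set gave -0.14 in Glia, -0.20 in Autonomic and -0.21 in Mesenchymal against NCSCs arrays. The changes without that covariate were 0.22, 0.098 and 0.15, so their signs were not settled. The ratio averaged higher in each primed group than in NCSCs arrays, without overlap for Mesenchymal, so these fits part it poorly from the group. Peg3 has YY1 sites in its imprinting control region in mouse, while its promoter window held 0 matches to CCATNTT. Yy1 itself was at 8.34, 8.38, 8.78 and 8.41 on the Autonomic arrays, against 9.38, 8.90, 8.76 and 9.17 on the NCSCs arrays (log2 change -0.58, limma adjusted p = 0.283). A link between Yy1 and Peg3 levels was not tested.

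Plagl1 showed no separation of groups either. It had 11.78, 11.11, 11.62 and 11.09 on the Glia arrays, 11.70, 10.95, 10.85 and 11.54 on the Autonomic arrays, 11.69, 12.0, 11.84 and 10.99 on the Mesenchymal arrays, and 11.65, 11.35, 11.61 and 12.02 on the NCSCs arrays. Every group overlapped every other, and the intervals of the differences from NCSCs were -0.83 to 0.31 for Glia, -0.97 to 0.17 for Autonomic and -0.60 to 0.54 for Mesenchymal arrays. Its dimmest probe set, at a mean of 4.82, gave changes of 0.44 and 0.44 in Glia and Autonomic arrays where the leading probe set gave -0.26 and -0.40. The leading probe set's difference of Mesenchymal from NCSCs arrays, -0.028, ran from -0.15 to 0.19 as arrays were left out.

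Groups that did not overlap are summarised here for the 9 genes. In Glia against NCSCs arrays 3 of 9 did not overlap (Mest, Grb10 and Ndn), while 7.18% of all genes did not. In Glia against Autonomic arrays 3 of 9 did not (Dlk1, Mest and Grb10), against 2.96%. The counts were 1 of 9 in Autonomic against NCSCs (5.53% of all genes), 2 of 9 in Mesenchymal against NCSCs (5.69%), 0 of 9 in Glia against Mesenchymal (4.55%) and 1 of 9 in Autonomic against Mesenchymal arrays (4.17%). The 3 comparisons with NCSCs share those 4 arrays.

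Among 50 listed imprinted genes, members included, 44 were measured. In Glia against NCSCs arrays 1 of 44 was called, beside 0.511% of all genes, and 0 of 44 were called in the other 5 comparisons, where 0.011% to 0.434% of all genes were. Magel2, a paternally expressed neighbour of Ndn and like it a MAGE family gene, had 3.42, 3.91, 3.56 and 3.65 on the Glia arrays, against 4.63, 4.70, 4.99 and 4.85 on the NCSCs arrays. The groups did not overlap, and the log2 change was -1.16 (SE 0.23, limma adjusted p = 0.0452), at levels not far above the array medians. In Autonomic against NCSCs arrays the change was -1.14 (limma adjusted p = 0.0514) and in Mesenchymal against NCSCs arrays -0.95 (limma adjusted p = 0.29), which did not pass. The Glia call was lost without any of 13 of the 16 arrays and held in 10 of 30 alternatives (limma adjusted p of 0.0122 to 0.308, changes of -1.50 to -0.62), and the Autonomic change was called in 7 of 30 (limma adjusted p of 0.0128 to 0.315). No difference between the primed groups is shown by these calls. The median change of the 22 measured paternally expressed genes was -0.20 in Glia, -0.24 in Autonomic and -0.21 in Mesenchymal against NCSCs arrays, and that of the 22 measured maternally expressed genes was -0.012, 0.049 and -0.076. The median of all genes was -0.0062, 0.0042 and -0.0058 in these comparisons, and that of genes brighter than the median gene was -0.11, -0.086 and -0.11.

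Lists of genes that act on imprints or in IGF signalling had no call, where 0.011% to 0.511% of all genes were called in these comparisons. Of 16 measured genes for imprint maintenance and DNA methylation 0 were called in any comparison, with medians of -0.27 in Glia, -0.15 in Autonomic and -0.10 in Mesenchymal against NCSCs arrays. The 22 measured IGF and insulin signalling genes likewise had 0 called, with medians of 0.090, 0.29 and 0.067. In these 3 comparisons 2, 3 and 1 of the 16 had an unadjusted p under 0.05, and 7, 8 and 4 of the 22. The shares of all genes with such a p were 9.91%, 9.8% and 7.7%, so 0 calls do not show that a list stayed level. Tet1, a 5-methylcytosine oxidase named after its values were seen, came nearest, with a log2 change of -2.62 in Autonomic (limma adjusted p = 0.0692) and -2.08 in Glia against NCSCs arrays (limma adjusted p = 0.163). It averaged 2.76 in Autonomic, 3.30 in Glia and 5.38 in NCSCs arrays. The Autonomic mean lay below the array medians and the Glia mean not far above them. A level above background was not shown there, which limits what the size of these changes means. Igf2r, a maternally expressed gene whose product takes Igf2 protein to lysosomes, is named after its values were seen. It averaged 8.15 ± 0.21 in Glia, 8.05 ± 0.79 in Autonomic and 6.81 ± 0.66 in Mesenchymal arrays (SD, n = 4 each). The log2 difference from Mesenchymal arrays was 1.33 for Glia (SE 0.40, limma adjusted p = 0.336) and 1.23 for Autonomic (SE 0.40, limma adjusted p = 0.338). The 17 measured partners of the members, among them cyclin-dependent kinases and necdin-binding proteins, had 0 called, with medians of -0.22, -0.086 and -0.10 against NCSCs arrays. In each of these comparisons 4 of the 17 had an unadjusted p under 0.05.

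The genes whose profile over the 16 arrays was most like that of each member were found among 9096 other genes with a mean above that of the median gene (9097 for Dlk1 and the H19 with Mir675 probe set, which are not in that pool). Igf2 was most like Ptpn2 (Pearson's r = 0.83), Map3k1 (0.83) and Nfkbiz (0.81), and Cdkn1c was most like Lbh (0.84), Jun (0.82) and Slc35f1 (0.78). Ndn was most like Uhrf1 (0.84), Pnrc2 (0.84) and Hikeshi (0.82), Mest was most like Gsk3b (0.80), Rmi1 (0.79) and Snhg4 (0.78), and Grb10 was most like Ephb3 (0.85), Rac1 (0.83) and Dlx2 (0.81). Dlk1 was most like Oscp1 (0.82), Smyd5 (0.78) and Fgfr1 (0.78), and Meg3 was most like Cbx6 (0.79), Nupr1 (0.79) and Il3ra (0.78). Plagl1 was most like Emid1 (0.82), Stc2 (0.82) and Hoxb7 (0.78), Peg3 was most like Mylk2 (0.75), Wsb1 (0.75) and Slc4a3 (0.72), and the H19 with Mir675 probe set was most like Rnf6 (0.82), Actr5 (0.80) and Snhg5 (0.78). These are the highest of many values over 16 arrays that share 4 groups.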

How the data were processed

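The values are array intensities that the authors made with RMA, which corrects background, normalizes arrays and summarises probes, per the submitters' processing notes, without a version. Their range, 1.487 to 31600, shows a linear scale, so the log2 of each deposited value was used as it stands. The members and the gene lists were chosen with earlier results of these data known. Of 45101 probe sets, 34958 carried 1 gene symbol, 932 several and 9211 were not listed with one, and 99.4% of the first were matched by Entrez identifier to the GRCm38.p6 gene table. The brightest probe set stood for each of 18194 genes.

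limma 3.58.1 (R 4.3.3) fitted 1 mean per group to all 16 arrays (lmFit, eBayes), two-sided, with Benjamini-Hochberg adjustment over all genes and calls at an adjusted p under 0.05. A second fit over all 45101 probe sets gave the H19 with Mir675 probe set and the dimmer probe sets. Groups came from the sample titles. The labels do not say whether replicates are separate cultures, so the p-values cover the spread among the deposited arrays alone, whose number limits the precision. Correlations used permutation tests. Tested on simulated data with the means and residual SDs of 18194 genes, Glia against NCSCs, the fit called 6 of 50 genes changed 2-fold, 29 at 4-fold, 44 at 8-fold and 46 at 16-fold, with 10 of 135 calls false.

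Named genes are all 10 members with every probe set, every called gene of the imprinted, methylation, IGF and partner lists (at most 4 in each direction), the 3 genes most like each member, and Yy1, Xist and Sox10. Marker genes, Igf2r and Tet1 are named beside these, after their values were seen. Alternatives were the replicate block, 3 scalings, a filter for dim genes, 2 further probe set rules, 2 settings of limma's variance and weights, an offset of 16, fits restricted to the compared groups, and omission of every array in turn. Chosen after seeing the data were the Gapdh ratio and the Xist level as covariates and the fit of every probe set.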

Additional observations from a re-analysis of the deposited data

Results flagged for a closer look

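In 40 sets of 4 arrays (10 members in 4 groups), 2 had an array far from the other 3 by Dixon's criterion, which chance gives in about 1 of 20 sets. Dlk1 on Autonomic replicate 2 was at 5.02, against 4.38 to 4.45 on the other Autonomic arrays. Mest on Glia replicate 4 was at 11.27, against 11.09 to 11.12 on the other Glia arrays, a gap that stands out because those 3 lie so close together.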

How the results depend on the processing

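Of 209 recomputed counts of called members, 208 were 0. The exception was the log2 of the value plus 16, which gave 1 called member, Mest, in Autonomic against NCSCs arrays. With the replicate block 0 members were called in each of the 7 tests, and leaving out any array also gave 0. Same-numbered arrays did not deviate together (correlations of -0.067 to 0.064 over 24 pairs, 0 above 0.1), and the block moved the count over all genes to 52 from 93 in Glia against NCSCs. That count ran from 25 without NCSCs replicate 4 to 168 without Autonomic replicate 1, and in Autonomic against NCSCs from 17 in a fit of only those groups to 237 without Autonomic replicate 1, against 79. In the other comparisons it ran from 0 to 9 (Mesenchymal against NCSCs, 4), 0 to 7 (Glia against Autonomic, 2), 14 to 68 (Glia against Mesenchymal, 41) and 26 to 141 (Autonomic against Mesenchymal, 63). Of 1608 recomputed member changes, 60 changed sign, none of them called, and 22 of the 54 changes kept their sign throughout. Centring on housekeeping genes moved the median gene by 0.25 in Glia, 0.24 in Autonomic and 0.14 in Mesenchymal against NCSCs arrays. There the split of calls was 49 higher and 20 lower in Glia, against 34 and 59 as deposited, and 34 and 17 in Autonomic, against 24 and 55. Dlk1 has no value under the filter on dim genes, nor Grb10 without cross-matching probe sets. Signal over background was not measured, which limits what dim probe sets such as those of Dlk1 and Magel2 can show.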
